A study of Homo sapiens with 6 samples.

Results

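The SMN complex is the cytoplasmic machine that places Sm proteins on small nuclear RNAs (snRNAs), the step that turns an snRNA into a core particle of the spliceosome. Its genes were defined by name, as SMN1, SMN2, the Gemin genes (DDX20 encodes Gemin3) and STRAP, and 10 of 10 were found once each by Ensembl identifier among the 60856 features of the deposited tables. They were measured by RNA sequencing in Jurkat cells, a human T lymphocyte line of leukemic origin labelled WT. The 3 BPAF libraries came from cells given 1 µM bisphenol AF, a fluorinated analogue of bisphenol A, and the 3 DMSO libraries came from cells given 0.1% dimethyl sulfoxide, the vehicle. The sample labels and the design text give an exposure of 12 h and the treatment protocol gives 24 h, so the time is uncertain. The 3 libraries of each treatment are described as biological replicates in the design text, and all are from 1 cell line.

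SMN1 and SMN2 are neighbouring copies of 1 gene on chromosome 5 that encode the survival motor neuron protein, the scaffold of the complex; loss of SMN1 causes spinal muscular atrophy, and SMN2 transcripts largely skip an exon because of a silent base change. GEMIN2 holds the Sm proteins before the ring closes, GEMIN5 recognises the snRNA, and DDX20, a DEAD-box RNA helicase, is bound by GEMIN4. GEMIN6 and GEMIN7 pair with each other through Sm-like folds, GEMIN8 joins that pair to SMN, and STRAP (also called UNRIP) is a peripheral subunit built of WD repeats. T cells, like other cells, need the complex to make spliceosomes.

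The set was proposed after a lower SMN2 level in BPAF cells had been seen in these libraries. The BPAF and DMSO values of SMN1, SMN2 and their sum are therefore a description, with no test. For the other 8 genes the adjusted p comes from edgeR's quasi-likelihood test over all 15490 tested genes with Benjamini-Hochberg adjustment, and a call is an adjusted p under 0.05. Levels are CPM (counts scaled to library size, with TMM factors), and fold changes are log2 of BPAF over DMSO with their standard error (SE). TPM, which is scaled for transcript length, was used to compare levels between genes. Library totals were 20253656 to 22617613 estimated counts in BPAF and 20745097 to 22117976 in DMSO. The 10 T lineage markers summed to 2667 to 2731 CPM in BPAF and 2663 to 2731 CPM in DMSO (CPM without TMM factors). Myeloid markers summed to 0.35 to 0.40 CPM in BPAF and 0.18 to 0.67 CPM in DMSO, B cell markers to 11.8 to 12.6 CPM in BPAF and 12.6 to 14.8 CPM in DMSO, natural killer markers to 2.87 to 4.13 CPM in BPAF and 2.34 to 3.32 CPM in DMSO, and erythroid markers to 5.19 to 6.62 CPM in BPAF and 5.06 to 6.03 CPM in DMSO. A list of EPCAM, COL1A1 and PECAM1 was almost all PECAM1. It summed to 119.4 to 121.1 CPM in BPAF and 120.2 to 128.7 CPM in DMSO. The markers CD79A (log2 fold change -0.18) and PECAM1 (-0.08) were lower in every BPAF library, NKG7 (0.48) overlapped, and none of the 3 passed in edgeR (adjusted p = 0.288, 0.213 and 0.240). Their part in the results was not tested.

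Promoter sequence from RefSeq (GRCh38.p14) was matched for 8 of the 10 genes, all but SMN1 and SMN2. Shown are the 120 bases before the start of GEMIN6 and GEMIN7, whose products pair and whose CPM lay lower in every BPAF library, and of GEMIN4, whose level differed little. Capitals mark matches on either strand to 7 motifs searched in the 250 bases before each start. These were the ETS motif CCGGAAG, the NRF1 motif (GCGC and TGCGC with 1 base of any kind between them), the NFY motif CCAAT, the GC box GGGCGG, the E-box CACGTG, the AP-1 motif TGANTCA and the estrogen response element (GGTCA and TGACC with 3 bases of any kind between them), and no matches overlapped in the 8 genes.
GEMIN6 (chr2:38778090-38778209, plus strand): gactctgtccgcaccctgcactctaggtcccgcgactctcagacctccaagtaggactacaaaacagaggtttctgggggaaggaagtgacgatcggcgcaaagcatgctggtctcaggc
GEMIN7 (chr19:45079075-45079194, plus strand): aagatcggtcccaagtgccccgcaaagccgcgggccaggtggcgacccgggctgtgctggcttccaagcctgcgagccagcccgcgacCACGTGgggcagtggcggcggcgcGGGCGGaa
GEMIN4 (chr17:752265-752384, minus strand): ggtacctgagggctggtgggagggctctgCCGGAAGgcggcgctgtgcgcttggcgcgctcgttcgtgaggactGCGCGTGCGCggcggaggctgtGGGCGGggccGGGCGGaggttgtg

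GEMIN6 held no match to any of the 7 motifs in its 250 bases, while the GEMIN7 start shown held an E-box and a GC box. Another GEMIN7 start (chr19:45075507-45075626) held a GC box and no E-box. A gene was counted if any of its starts held the motif, while the shares are of single windows. The RefSeq starts of GEMIN6 and GEMIN4 lie inside the GENCODE spans given below. GEMIN4 held ETS, NRF1 and GC box matches. Across the 8 genes, the NRF1 motif was found in 3 (GEMIN2, GEMIN4 and STRAP), against 5.07% of 35116 promoter windows of the same length. The ETS motif was found in 2 (GEMIN4 and GEMIN8), against 8.52% of windows, and the E-box in 2 (GEMIN7 and GEMIN8), against 6.34%. A GC box was found in 5, against 42.6% of windows, and NFY in 3, against 32.0%. AP-1 and the estrogen response element were in 0 of the 8, against 6.57% and 0.0399% of all windows. These matches are letters in a window and no measure of binding.

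All 10 genes were expressed, with levels spread over nearly an order of magnitude on the TPM scale. STRAP had the highest mean, at 102.6 TPM over the 6 libraries (98.3 to 104.7), and SMN1 lay beside it at 101.0 TPM (99.8 to 102.6), so their ranges overlapped. GEMIN4 followed at 44.5 TPM (41.1 to 46.3) and GEMIN2 at 43.5 TPM (40.7 to 46.1), again with overlapping ranges. SMN2 had a mean of 40.2 TPM and the widest range of the 10, 29.3 to 56.4 TPM, which overlapped those of GEMIN4, GEMIN2 and GEMIN7. GEMIN7 was at 35.8 TPM (31.5 to 41.0).

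The helicase DDX20 was at 25.2 TPM (22.8 to 26.7), and GEMIN8 at 21.5 TPM (20.1 to 23.9) overlapped it. GEMIN5 was at 14.4 TPM (12.9 to 15.1) and GEMIN6, the lowest, at 12.6 TPM (11.2 to 14.0). The scale mattered for the middle of this order and for the distance between STRAP and SMN1. With CPM divided by the union of annotated exons in kilobases (GENCODE release 29), STRAP, SMN1 and GEMIN4 kept the first 3 places, at 53.7, 25.1 and 20.97 CPM per kb, and GEMIN6 the last, at 3.32 CPM per kb. GEMIN8 moved up to 11.7 CPM per kb, and GEMIN2 and SMN2 moved down to 8.95 and 5.44 CPM per kb. The ranges of STRAP (52.2 to 55.0 CPM per kb) and SMN1 (23.5 to 26.9 CPM per kb) no longer overlapped.

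**Figure D1:**
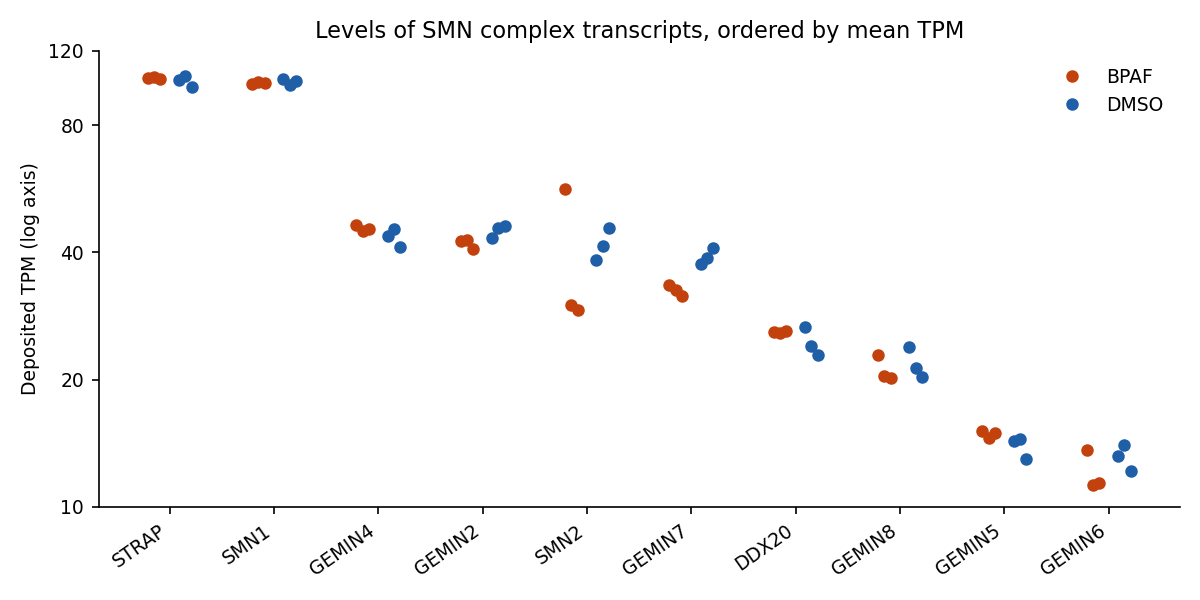
Deposited TPM (log axis) of the 10 SMN complex genes in each library, ordered by mean TPM, with the 3 BPAF libraries at the left of each gene and the 3 DMSO libraries at the right. STRAP and SMN1 lie near 100 TPM, GEMIN5 and GEMIN6 lie under 16 TPM, and SMN2 spreads from 29.3 to 56.4 TPM.

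SMN1, which supplied most counts of the pair, lay lower in every BPAF library than in any DMSO library on the CPM scale, and so did SMN2. SMN1 (ENSG00000172062, GRCh38 chromosome 5, 70925030 to 70953942, plus strand) had 72.9, 76.4 and 73.7 CPM in BPAF, against 80.7, 78.6 and 83.4 CPM in DMSO. The groups did not overlap, and the log2 fold change was -0.12 with an SE of 0.04. SMN2 (ENSG00000205571, chromosome 5, 70049612 to 70078522, plus strand) had 15.8, 12.9 and 12.9 CPM in BPAF, against 19.1, 18.7 and 18.95 CPM in DMSO. BPAF replicate 1 stood above the other two BPAF libraries and still under each DMSO library, and the DMSO libraries were close together. The log2 fold change of SMN2 was -0.45 with an SE of 0.09, a level 26.7% lower in BPAF.

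Counts of the copies can be exchanged during counting, since their transcripts are nearly the same. The GENCODE transcripts of a 1536-base form of each copy differ at 2 bases and share an identical run of 913 bases, and those of a 900-base form differ at 1 base. The deposited counts of SMN1 were fractional in every library, and those of SMN2 were whole in 1 of 6. SMN2 made up 17.8%, 14.4% and 14.9% of the counts of the pair in BPAF, against 19.1%, 19.2% and 18.5% in DMSO. That is a mean of 15.7 ± 1.81% in BPAF and 18.95 ± 0.38% in DMSO (SD, n = 3 each), with no overlap. By TPM the share of SMN2 was 36.1%, 22.8% and 22.5% in BPAF, against 27.2%, 29.3% and 31.0% in DMSO. The groups overlapped on that scale. An antisense RNA overlaps each copy on the other strand, and both were listed with the same fractional counts, 5.5, 4.0 and 7.5 in BPAF and 7.0, 2.5 and 3.5 in DMSO.

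The summed count of the copies does not depend on how the counted reads were divided between them. No source used here says whether all reads that match both copies were counted. The sum was 88.7, 89.3 and 86.6 CPM in BPAF, against 99.8, 97.4 and 102.4 CPM in DMSO. No BPAF library reached the lowest DMSO library. The log2 fold change of the sum was -0.18 with an SE of 0.04, a level 11.7% lower in BPAF. Leaving out each library in turn gave -0.20 to -0.16.

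The deposited TPM gave another picture of the pair. SMN1 had 99.95, 101.4 and 100.9 TPM in BPAF, against 102.6, 99.8 and 101.7 TPM in DMSO, and the groups overlapped. SMN2 had 56.4, 29.9 and 29.3 TPM in BPAF, against 38.3, 41.4 and 45.6 TPM in DMSO. BPAF replicate 1 was above every DMSO library and the other two BPAF libraries were below every DMSO library. The summed TPM was 156.3, 131.3 and 130.2 in BPAF, against 141.0, 141.2 and 147.3 in DMSO. The log2 fold change of the sum on the TPM scale was -0.04 (pseudocount 1), where the median of all tested genes was 0.08.

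The 2 scales parted most in BPAF replicate 1. The TPM of SMN2 per unscaled CPM was 3.53 in that library, 2.31 and 2.23 in the other two BPAF libraries, and 2.03, 2.23 and 2.45 in DMSO. A gene divided by a fixed length would keep this ratio nearly constant between libraries, as SMN1 did (1.32 to 1.36 in BPAF and 1.24 to 1.29 in DMSO). The highest SMN2 ratio was 1.74 times the lowest, a spread that 2.7% of 11415 genes (average log2 CPM 2 or above) exceeded, and the median gene had 1.13. GEMIN6 had a spread of 1.35 times and the other 8 genes 1.07 to 1.13 times. No source used here says how the deposited TPM were computed.

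**Figure D2:**
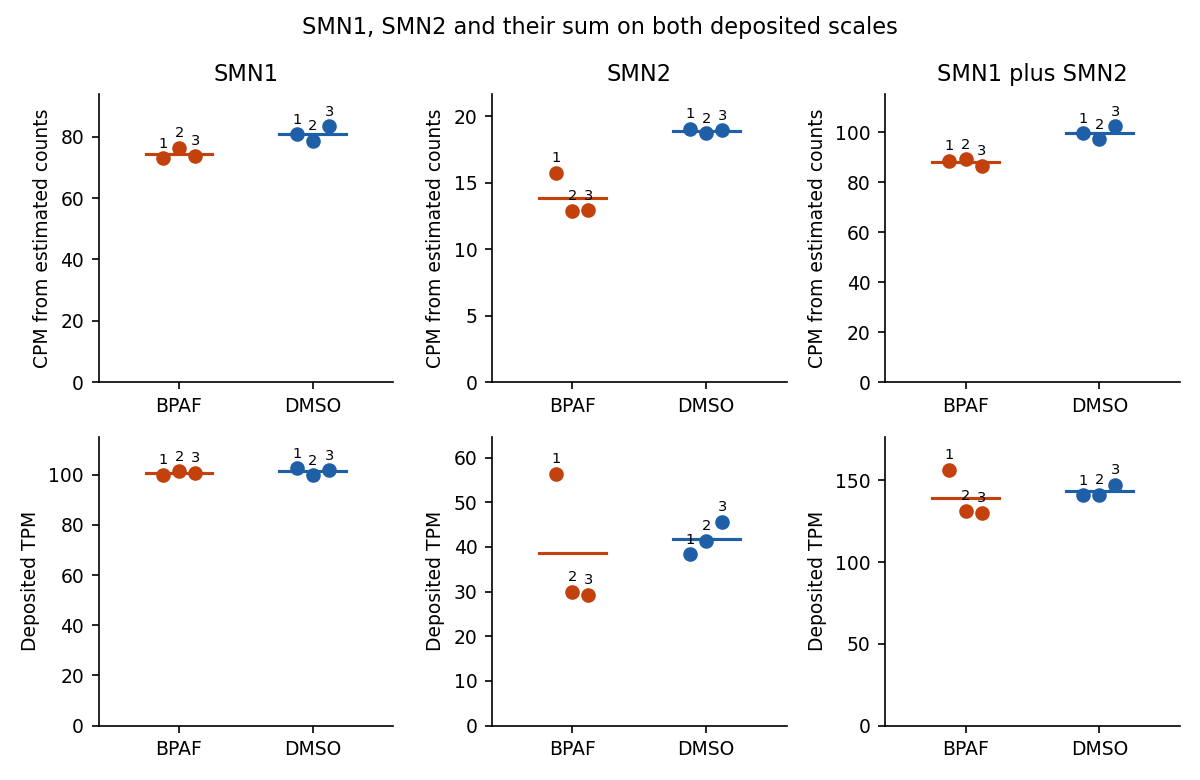
SMN1, SMN2 and their sum in each library as TMM-scaled CPM from the estimated counts (top) and as deposited TPM (bottom), with replicate numbers above the points and bars at the group means; axes start at 0. On the CPM scale all BPAF points lie under the DMSO points, and on the TPM scale BPAF replicate 1 of SMN2, at 56.4 TPM, lies above them.

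Other genes of the duplicated segment of chromosome 5 that holds SMN1 and SMN2 gave no calls in edgeR among 5 tested. Across all tested genes 6.06% were called in either direction, so nothing is read from that count. NAIP, which encodes an innate immune sensor, had 8.60, 7.55 and 7.88 CPM in BPAF, against 6.45, 6.61 and 6.92 CPM in DMSO (log2 fold change 0.27, adjusted p = 0.210). The copies SERF1A and SERF1B had log2 fold changes of -0.03 and -0.15, and GTF2H2 and GTF2H2C, genes for a subunit of the transcription and repair factor TFIIH, of -0.09 and 0.01. The groups of these 4 genes overlapped. SMNDC1, a splicing factor related to SMN by sequence, was at 50.5 ± 1.06 CPM in BPAF and 54.5 ± 1.18 CPM in DMSO (SD, n = 3 each; log2 fold change -0.11, adjusted p = 0.176). The groups did not overlap.

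GEMIN2 holds the open ring of Sm proteins against SMN. GEMIN2 (ENSG00000092208, chromosome 14, 39114223 to 39136973, plus strand) had 23.2, 24.0 and 21.8 CPM in BPAF, against 23.8, 26.9 and 28.4 CPM in DMSO. BPAF replicate 2 lay just above DMSO replicate 1, so the groups overlapped, and the log2 fold change of -0.20 (SE 0.07) did not pass (adjusted p = 0.129). Its deposited counts were whole in all 6 libraries. On the TPM scale the groups did not overlap, with 40.7 to 42.9 TPM in BPAF and 43.2 to 46.1 TPM in DMSO.

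GEMIN7 was the 1 gene called among the 8 that carry a test, and its partner GEMIN6 lay in the same direction without passing; 3.4% of all tested genes were called lower. GEMIN7 (ENSG00000142252, chromosome 19, 45079195 to 45091524, plus strand) had 12.2, 12.1 and 11.1 CPM in BPAF, against 14.6, 14.8 and 14.8 CPM in DMSO. The groups did not overlap, and GEMIN7 fell by 0.32 on the log2 scale (SE 0.09, adjusted p = 0.0314). Its TPM groups did not overlap either, with 31.5 to 33.4 TPM in BPAF and 37.6 to 41.0 TPM in DMSO. The call was lost in each of the 6 fits that left out 1 library, in DESeq2 and on the TPM scale, with adjusted p from 0.0526 to 0.137.

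GEMIN7 shares its locus with other genes, and none of its deposited counts was whole. MARK4, a kinase gene, and PPP1R37, a phosphatase regulator gene, overlap it on the same strand. MARK4 was at 42.8 ± 0.64 CPM in BPAF and 41.2 ± 2.01 CPM in DMSO, and PPP1R37 at 35.2 ± 3.36 CPM in BPAF and 30.5 ± 1.31 CPM in DMSO (SD, n = 3 each). Their log2 fold changes were 0.05 (adjusted p = 0.639) and 0.21 (adjusted p = 0.0763), and the groups overlapped for both. Whether shared reads had a part in the lower GEMIN7 level was not tested. The antisense GEMIN7-AS1 was at 0.80 ± 0.12 CPM in BPAF and 0.77 ± 0.43 CPM in DMSO.

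GEMIN6 (ENSG00000152147, chromosome 2, 38751534 to 38785000, plus strand) had 12.5, 14.0 and 13.1 CPM in BPAF, against 15.8, 15.95 and 15.4 CPM in DMSO. The groups did not overlap, and the log2 fold change was -0.25 with an SE of 0.08 (adjusted p = 0.0863). On the TPM scale BPAF replicate 1, at 13.6 TPM, lay within the DMSO range of 12.1 to 14.0 TPM, and the other two BPAF libraries lay below it at 11.2 and 11.4 TPM. The 2 pseudogenes annotated within its span were listed at 0 in every library.

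The helicase DDX20, its partner GEMIN4, the RNA-binding GEMIN5 and the bridging GEMIN8 gave values close to 0. DDX20 (ENSG00000064703, chromosome 1, 111755245 to 111768016, plus strand) had 59.3, 60.8 and 59.5 CPM in BPAF, against 64.1, 59.9 and 58.8 CPM in DMSO (log2 fold change -0.03, SE 0.05, adjusted p = 0.822). GEMIN4 (ENSG00000179409, chromosome 17, 744414 to 753999, minus strand) had 123.5, 122.7 and 118.7 CPM in BPAF, against 120.6, 120.3 and 117.6 CPM in DMSO. It was the 1 gene of the 10 with a log2 fold change above 0, at 0.03 (SE 0.03, adjusted p = 0.755).

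GEMIN5 (ENSG00000082516, chromosome 5, 154887416 to 154938209, minus strand) had 54.2, 52.8 and 53.97 CPM in BPAF, against 54.1, 55.3 and 51.8 CPM in DMSO (log2 fold change -0.0022, SE 0.05, adjusted p = 0.990). On the TPM scale GEMIN5 was higher in every BPAF library, at 14.54 to 15.11 TPM, against 12.94 to 14.47 TPM in DMSO. Its log2 fold change there was 0.09 (pseudocount 1), close to the median of 0.08 over all tested genes on that scale. GEMIN8 (ENSG00000046647, chromosome X, 14008279 to 14029893, minus strand) had 30.3, 26.2 and 27.9 CPM in BPAF, against 30.1, 28.5 and 27.0 CPM in DMSO (log2 fold change -0.02, SE 0.07, adjusted p = 0.913). The groups of all 4 genes overlapped on the CPM scale. The processed copies GEMIN2P1, GEMIN2P2, GEMIN8P1, GEMIN8P2 and GEMIN8P3 had 0 counts in every library, and GEMIN8P4 had 43 to 75 counts in BPAF and 63 to 66 in DMSO.

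STRAP, level with SMN1 in TPM, showed the smallest spread between replicates of the 10 genes on the CPM scale. STRAP (ENSG00000023734, chromosome 12, 15882391 to 15903478, plus strand) had 116.8, 116.3 and 115.3 CPM in BPAF, against 121.4, 121.7 and 121.3 CPM in DMSO. The groups did not overlap, and the coefficient of variation was 0.65% in BPAF and 0.15% in DMSO. At 2372 to 2654 estimated counts a library, random sampling of reads alone would give a wider spread. Nothing is therefore read from the small spread of STRAP. The log2 fold change of -0.06 (SE 0.03) did not pass (adjusted p = 0.294), and on the TPM scale the groups overlapped (102.9 to 103.9 TPM in BPAF and 98.3 to 104.7 TPM in DMSO). Its deposited counts were whole in all 6 libraries, as were those of GEMIN5.

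**Figure D3:**
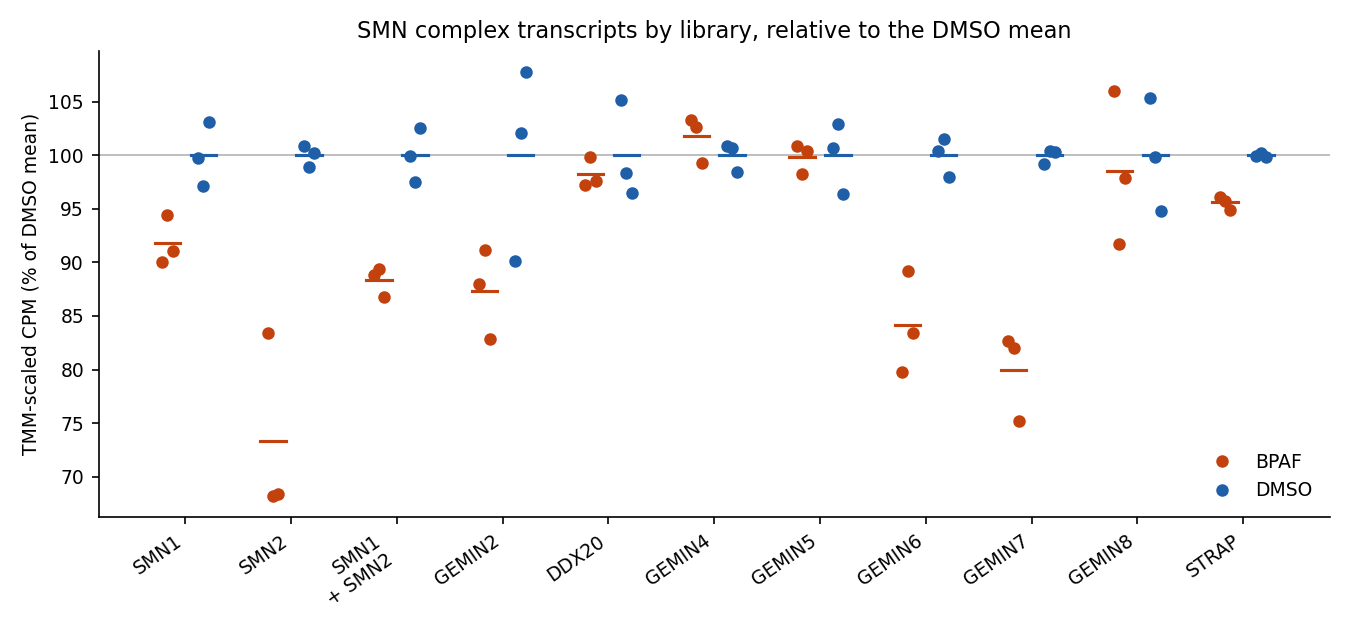
TMM-scaled CPM of each SMN complex gene and of SMN1 plus SMN2 in each library, as a percentage of the gene's DMSO mean (axis not starting at 0), with BPAF at the left and DMSO at the right of each gene and bars at the group means. SMN1, SMN2, their sum, GEMIN6, GEMIN7 and STRAP show no overlap, with every BPAF library lower.

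Of the 8 genes other than SMN1 and SMN2, 1 passed in edgeR, GEMIN7, lower in BPAF, and 0 were higher. Across all tested genes 6.06% passed in either direction and 3.4% were lower in BPAF, 938 genes in all. That total dropped to 322 when BPAF replicate 1 was left out, to 392 for BPAF replicate 3 and to 482 for DMSO replicate 1. In 5 of the 10 genes (SMN1, SMN2, GEMIN6, GEMIN7 and STRAP) every BPAF library was lower in CPM, against 12.8% of all tested genes. The median log2 fold change was -0.09 over the 10 genes, -0.05 without SMN1 and SMN2, and 0.0019 over all tested genes, and 9 of the 10 values were below 0. Since this contrast was known when the set was proposed, nothing is read from these counts. Of the same 8 genes, limma-voom called GEMIN7, where 773 of all 15490 tested genes were called. DESeq2 called 0, where 631 genes were called in all. The TPM scale (pseudocount 1) gave 0, where 1 gene was called in all. In edgeR 3 of the 8 had an unadjusted p under 0.05, all lower in BPAF, against 10.5% of all tested genes lower at that level and 19.9% in either direction.

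Genes that act before and after the complex in snRNP assembly were taken from general knowledge in 4 lists with 30 genes in all, each of them tested, of which 5 were called lower and 0 higher in edgeR, against 3.4% of all tested genes called lower and 6.06% in either direction. Of the 30, 7 had an unadjusted p under 0.05, all lower, against 10.5% of all tested genes lower and 19.9% in either direction. DESeq2 and limma-voom each gave 6 lower and 0 higher. Over all 15490 tested genes DESeq2 gave 374 lower and 257 higher, and limma-voom 455 lower and 318 higher. The median log2 fold change of the 30 was -0.05, against 0.0019 over all tested genes. The lists were chosen with earlier results of these data known, so nothing is read from these counts or from those of each list. Leaving out BPAF replicate 1 gave a count of 2, BPAF replicate 3 also 2 and DMSO replicate 1 a count of 3, and the TPM scale gave 0. A per-gene offset by GC content and exon length gave 8, all lower, where all tested genes gave 321 higher and 983 lower. The split over all tested genes was 411 higher and 527 lower with TMM, and upper quartile scaling gave 461 higher and 400 lower, with 4 partner genes called.

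The Sm core, the proteins that the complex loads onto snRNA, held 3 of these 5 calls among 8 genes, and all 8 had a log2 fold change below 0 (median -0.13). Of all 15490 tested genes, 527 were called lower and 7627 had a value below 0. SNRPD1 had 156.1, 154.9 and 156.2 CPM in BPAF, against 170.4, 169.2 and 178.4 CPM in DMSO. The groups did not overlap, and SNRPD1 fell by 0.15 on the log2 scale (SE 0.03, edgeR adjusted p = 0.00832). On the TPM scale its direction turned, to 0.18 (limma adjusted p = 0.183), and every BPAF library was higher. The median of all tested genes on that scale was 0.08. SNRPD1 had 112.2, 124.4 and 119.9 TPM in BPAF, against 111.2, 102.0 and 100.7 TPM in DMSO. SNRPB fell by 0.17 (adjusted p = 0.0248), with 436.6, 442.5 and 421.5 CPM in BPAF, against 480.5, 458.0 and 519.8 CPM in DMSO. SNRPG fell by 0.26 (adjusted p = 0.0425), with 133.8, 126.2 and 126.8 CPM in BPAF, against 146.1, 145.5 and 170.6 CPM in DMSO.

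The remaining Sm genes did not pass in edgeR. SNRPE had a log2 fold change of -0.25 (adjusted p = 0.134, called in DESeq2 and limma-voom), and SNRPD2, SNRPN, SNRPF and SNRPD3 lay between -0.12 and -0.02. SNRPB and SNRPG kept their calls in 3 of the 6 fits that left out 1 library, with adjusted p up to 0.122 and 0.195, and SNRPD1 in 6 of 6. SNRPG also lost its call with upper quartile scaling (adjusted p = 0.0545) and with protein-coding genes only (0.0627).

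In the methylosome list, whose enzyme complex methylates Sm proteins before they reach SMN, PRMT5 was the 1 called of 5. Across all tested genes 3.4% were called lower. PRMT5, the arginine methyltransferase itself, had 233.7, 229.3 and 226.5 CPM in BPAF, against 249.8, 250.5 and 250.6 CPM in DMSO. All 3 BPAF libraries lay lower, and PRMT5 fell by 0.12 on the log2 scale (SE 0.03, edgeR adjusted p = 0.0138). Its partner WDR77 (0.01), the Sm chaperone CLNS1A (-0.01), the cofactor COPRS (0.01) and RIOK1 (-0.05) did not pass. PRMT5 lost its call without BPAF replicate 3 (adjusted p = 0.0655) and without DMSO replicate 1 (0.0509).

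Of 8 genes of snRNA export, cap maturation and import, RAN was the 1 called, against 3.4% of all tested genes called lower. RAN, the GTPase that drives nuclear transport, had 911.6, 918.6 and 883.1 CPM in BPAF, against 996.0, 980.0 and 993.8 CPM in DMSO. All BPAF libraries lay under the DMSO range, and RAN fell by 0.13 on the log2 scale (SE 0.03, edgeR adjusted p = 0.00726). Its TPM lay in the other direction (0.11, limma adjusted p = 0.205), where the median of all tested genes was 0.08. On that scale every BPAF library was higher, at 1484.6 to 1505.9 TPM, against 1335.8 to 1441.8 TPM in DMSO. RAN lost its call without BPAF replicate 1 (adjusted p = 0.0504). The other 7, among them the export adaptor PHAX (-0.03), the cap hypermethylase TGS1 (-0.03) and the import adaptor SNUPN (-0.06), did not pass. In the list of Cajal body, U7 ring and recycling genes 0 of 9 passed in edgeR, DESeq2 and limma-voom, and 0 had an unadjusted edgeR p under 0.05. Of all tested genes, 6.06% passed in edgeR and 19.9% had an unadjusted edgeR p under 0.05. The smallest p was that of the nucleolar methyltransferase FBL (log2 fold change -0.06, adjusted p = 0.288).

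**Figure D4:**
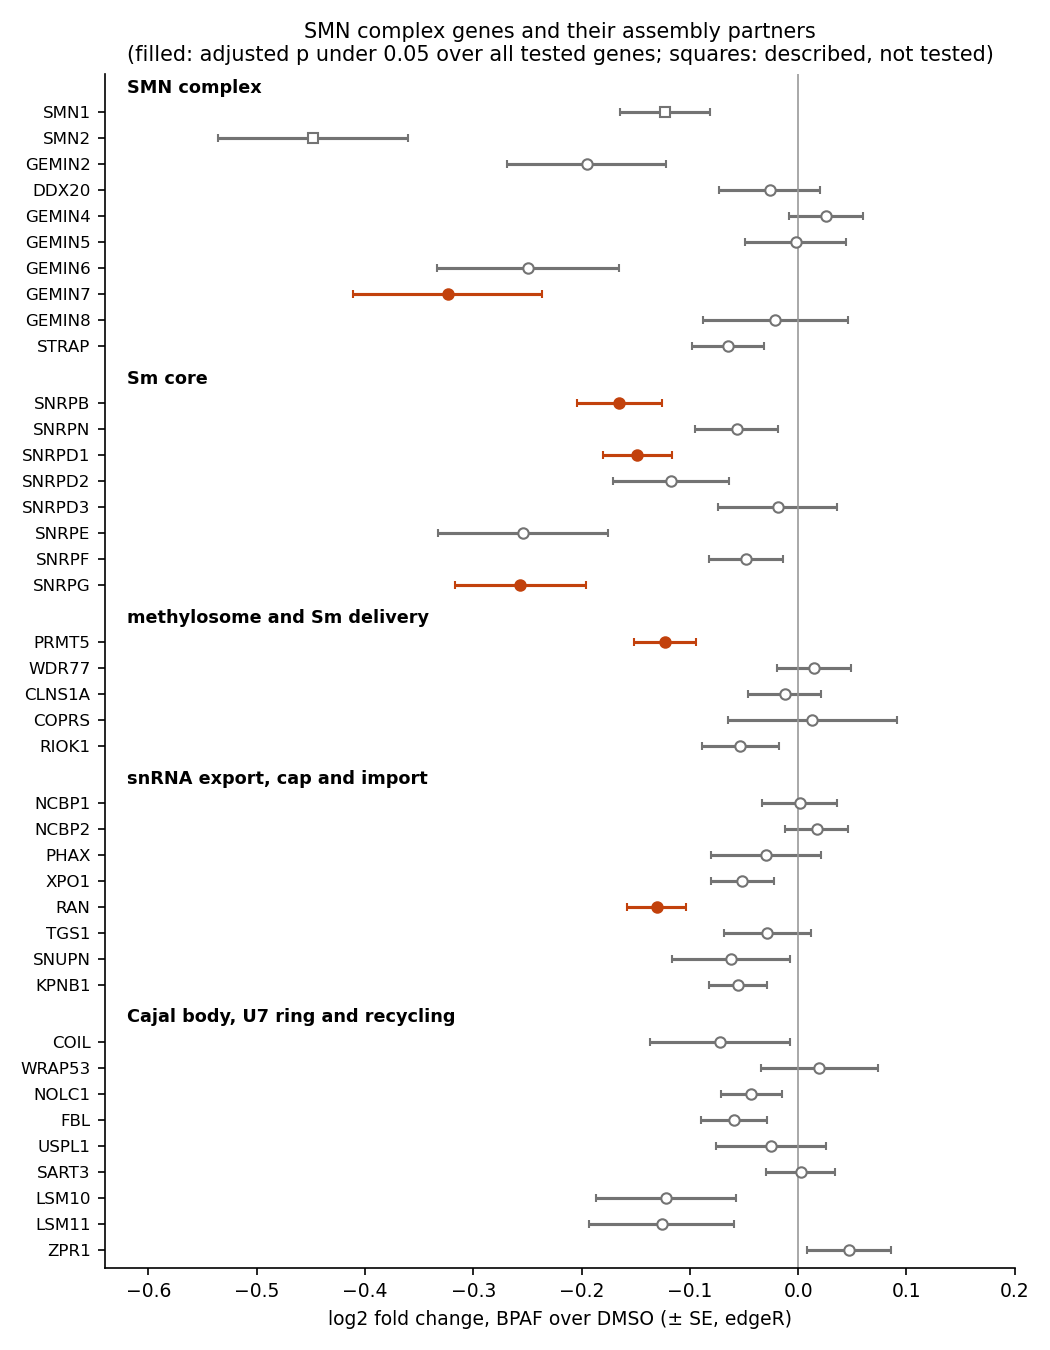
Log2 fold change of BPAF over DMSO with its SE from edgeR for the SMN complex genes and the 4 lists of assembly partners, one row per gene; filled points had an adjusted p under 0.05 over all tested genes, and squares mark SMN1 and SMN2, given without a test. SMN2 (-0.45) and GEMIN7 (-0.32) lie farthest from 0, and GEMIN4, GEMIN5, GEMIN8 and DDX20 lie within 0.03 of it.

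The genes most like the SMN1 plus SMN2 sum across the 6 libraries were found by the root-mean-square difference of log2 CPM, centred on each gene's mean, over 11795 named genes (average log2 CPM 1 or above). They were MYL12B, a myosin light chain gene (difference 0.0087), RPL10, a ribosomal protein gene (0.0097), and EEF1A1, a translation elongation factor gene (0.010). Their log2 fold changes were -0.17, -0.17 and -0.17. For SMN2 alone the nearest were NAP1L3 (0.074), ACTG2 (0.087) and GNAS-AS1 (0.090), with log2 fold changes of -0.38, -0.40 and -0.39. The levels of these 3 genes lay between 2.00 and 8.88 CPM. The pattern matched includes the difference between BPAF and DMSO, so similar fold changes follow from the choice of these genes. The likeness describes 6 libraries only.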

How the data were processed

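Per the submitters' processing notes, FastQC, cutadapt, HISAT2, featureCounts and the builds GRCh38 and hg38 were used, and no source used here gives the annotation or versions. The authors deposited estimated counts with decimals and TPM per gene. Estimated counts were rounded. Genes passing filterByExpr were scaled by TMM and tested with edgeR 4.0.16 (R 4.3.3; robust quasi-likelihood, no covariate, Benjamini-Hochberg). The SE is the fold change size over the square root of F. SMN1 and SMN2 were summed before a separate fit. Symbols came from a gene name table, spans from GENCODE release 29, and promoters from RefSeq. Pseudocounts of 1 and 0.1 were added to TPM for limma 3.58.1, and DESeq2 1.42.0 and limma-voom were alternatives. Counts were called whole within 1e-09. Members and lists were chosen with earlier results of these data known. Named genes were all members, their annotated overlaps, copies and neighbours, list members past 0.05 (up to 4 by smallest p, otherwise the smallest p), and the 3 nearest in pattern. Each pair of libraries differed beyond sampling noise (chi-square over its degrees of freedom 2.34 to 7.11). The fits were checked on simulated counts. The planted changes were larger than that of any SMN complex or partner gene, so differences of the size described here were not checked.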

Additional observations from a re-analysis of the deposited data

How the results depend on the processing

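Both TPM fits (pseudocounts 1 and 0.1) called 1 and 2 genes in all, 0 SMN complex genes and 0 partner genes, and gave -0.044 and -0.044 for the SMN1 plus SMN2 sum; the cause was not tested. The calls that follow leave out SMN1 and SMN2, which are described without a test. Of the other 8 genes DESeq2 called 0, where 631 genes were called in all. Fits without 1 library called 322 to 861 genes and 2 to 7 partner genes. GEMIN7 lost its call in each of them, and the sum was -0.20 to -0.16. A per-gene offset by GC content and exon length was added after the data had been seen. In edgeR it called 8 partner genes, GEMIN7 (adjusted p = 0.00894) and GEMIN6 (adjusted p = 0.0482). The same fit called 1304 of all 15490 tested genes, 983 of them lower, and its median log2 fold change was -0.027. Restriction to protein-coding genes was also added after the data had been seen. GEMIN5, near 0, turned sign with upper quartile scaling (0.0086), a minimum of 1 CPM in 3 libraries (0.0018), TPM (0.092 and 0.098), protein-coding genes only (0.0092), and without BPAF replicate 2 (0.0079), DMSO replicate 1 (0.0020) or DMSO replicate 2 (0.015), with -0.030 the lowest of the 6 such fits. DDX20 turned with TPM (0.080 and 0.083) and without DMSO replicate 1 (0.011; lowest -0.054), and GEMIN8 without BPAF replicate 2 (0.025) or DMSO replicate 1 (0.018; lowest -0.077). With TPM, STRAP (0.021 and 0.022), FBL (0.024 and 0.024), SNRPD1 (0.18 and 0.18) and RAN (0.11 and 0.11) turned too. The median of all tested genes in the TPM fits was itself above 0, at 0.0775 and 0.0892. The described value of SMN2 ranged from -0.55 to -0.18 over the alternatives, with an SE of 0.227 on the TPM scale (pseudocount 1). With the replicate number as a block, 826 genes were called and the sum was -0.18; SNRPB lost its call (adjusted p = 0.0563). Same-numbered libraries did not deviate together (correlations -0.0398, -0.0411 and 0.0524), and not every library correlated best with its own number, so the numbers were not taken as pairs. GEMIN6 and GEMIN7 rest on about 246 to 345 counts a library, which limits how small a difference can be seen.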
